A study of Mus musculus with 4 samples.

Results

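The genes described here encode mitochondrial ribosomal proteins. They were chosen by symbol, as every gene on the arrays whose annotated symbol is Mrpl or Mrps followed by a digit. The rule used no measured values, but it was set with earlier results of these data known. This gave 74 of 12393 named genes, 47 of them Mrpl and 27 Mrps, represented by 127 probesets that carry no other symbol, and 33 genes had several. The probeset with the highest mean over the 4 arrays stood for a gene. RefSeq lists 78 protein-coding genes of this kind in the mouse. Mrpl30 and Mrpl53 were represented here only by probesets that carry a second symbol, and Mrps10 and Mrps27 were not analysed here.

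The mitochondrial ribosome translates the few messenger RNAs that mitochondrial DNA encodes, all of them for subunits of the respiratory chain and ATP synthase. Its RNAs come from mitochondrial DNA, but all of its proteins are encoded in the nucleus, made on cytosolic ribosomes and imported. The small subunit decodes the messenger, and the large subunit forms the peptide bond and passes the product to the inner membrane. PPARα is a nuclear receptor of liver that is activated by fatty acids and by drugs such as Wy14643, and it is known for its control of genes of fatty acid oxidation in peroxisomes and mitochondria.

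The study compared livers of male mice aged 12 to 20 weeks, with 1 array of pooled RNA per group. PPARα-null mice, which carry a disrupted Ppara gene and are labelled 129S4/SvJae, received food with 0.1% (w/w) Wy14643 or control food for 5 days. Wild-type mice, labelled 129S1/SvImJ, received the same diets. The series design gives 5 mice per pool. Since the substrain differs along with the Ppara gene, their parts in a difference between genotypes cannot be told apart. The description field of the wild-type Wy14643 array reads as a control, while its title and source name give Wy14643, and these were followed. With 1 array per group no ratio has a replicate check and no test over mice was possible, so precision is limited by the number of arrays.

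The deposited values are GCRMA intensities on a linear scale. Background was set at 12.6, the 90th percentile of 73 probesets of 47 genes that liver does not express, and 54.0% to 55.1% of all probesets exceeded it on each array. A gene was measured in a comparison if either array exceeded background, and was counted as higher or lower from a ratio of 1.5-fold. Ppara itself had an intensity of 428 in PPARα-null livers on Wy14643 and 326 in PPARα-null controls, against 1250.1 in wild-type livers on Wy14643 and 847 in wild-type controls. Whether its probeset lies in the deleted stretch is not given in the sources used here. All 6 measured genes of a list of known PPARα targets were higher on Wy14643 in wild-type livers, with a median log2 ratio of 2.89, and 3 of the 6 were so in PPARα-null livers, with a median of 0.57. All 9 measured hepatocyte markers exceeded background on every array, although 3 of the 9 (Tat, Cps1 and Fgb) were lower on Wy14643 in wild-type livers.

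The starts of several members are shown because members that lie next to each other, or that share promoter letters, can be set beside their measured responses. The sequences below are the 150 bases just before the annotated start, 5′ to 3′ on the gene's own strand, from RefSeq (build GRCm38.p6). Capitals mark the letters GCATGCGC or their reverse complement, the core of the site of the transcription factor NRF1, and CCGGAAG, a site of the ETS family to which GABPA belongs. Mrpl17 (chr7:105811088-105811237, minus strand) and Mrpl22 (chr11:58171514-58171663, plus strand) were among the members with the largest response. Mrpl33 (chr5:31613801-31613950, plus strand) holds letters of both kinds but its brightest probeset differed by less than 1.5-fold in each of the 4 comparisons, and its ETS letters run on past the start, so that only their first 3 are seen.
Mrpl17: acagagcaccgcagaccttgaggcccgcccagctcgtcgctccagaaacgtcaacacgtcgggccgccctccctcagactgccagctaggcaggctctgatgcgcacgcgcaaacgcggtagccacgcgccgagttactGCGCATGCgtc
Mrpl22: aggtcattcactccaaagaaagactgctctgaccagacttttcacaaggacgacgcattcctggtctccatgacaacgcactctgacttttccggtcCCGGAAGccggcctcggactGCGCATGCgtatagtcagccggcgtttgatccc
Mrpl33: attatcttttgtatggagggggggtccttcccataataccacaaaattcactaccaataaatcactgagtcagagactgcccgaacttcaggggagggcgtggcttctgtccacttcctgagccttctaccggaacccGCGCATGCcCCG

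In PPARα-null livers no mitochondrial ribosomal protein gene reached 1.5-fold on Wy14643. Of the 73 measured, 0 were higher and 0 lower, with a median log2 ratio of Wy14643 over control of -0.03 (0.03 after centring and 0.01 after cyclic loess) and a range of -0.58 to 0.42. Over all 7676 genes so measured, 174 were at least 1.5-fold higher (2.27%) and 334 lower (4.35%), so that few members would be past the threshold at the background share. Centring each array on its median moved the split over all genes to 265 higher and 276 lower. The lowest member was Mrpl40, a protein of the central protuberance, which had 32.3 in PPARα-null livers on Wy14643 and 48.4 in PPARα-null controls, a log2 ratio of -0.58 that fell just short of 1.5-fold. The highest was Mrps5 of the small subunit, with 77.3 on Wy14643 and 57.7 in controls.

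In wild-type livers 30 of the 74 members had at least 1.5 times as much signal on Wy14643 as on control food, and 0 were lower. The median log2 ratio was 0.43, the range -0.39 to 1.46, and 65 members had a positive ratio. Over all 7768 genes measured in this pair, 1144 were higher (14.7%) and 1219 lower (15.7%), with a median of 0.02. The members' share of 40.5% higher therefore stood above the share over all genes, and their share of 0% lower below it. Mrpl55, among the 30, exceeded background only on the wild-type Wy14643 array. With both arrays above background, 29 of 73 members were higher, as were 1028 of 6979 genes over all. Of the 30 genes, 8 were at least 2-fold higher, as were 522 of the 7768 genes over all. At 2-fold the members' share thus stood less far above that over all genes. These are bulk liver samples, in which more cells of a type and more RNA per cell cannot be told apart.

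**Figure D1:**
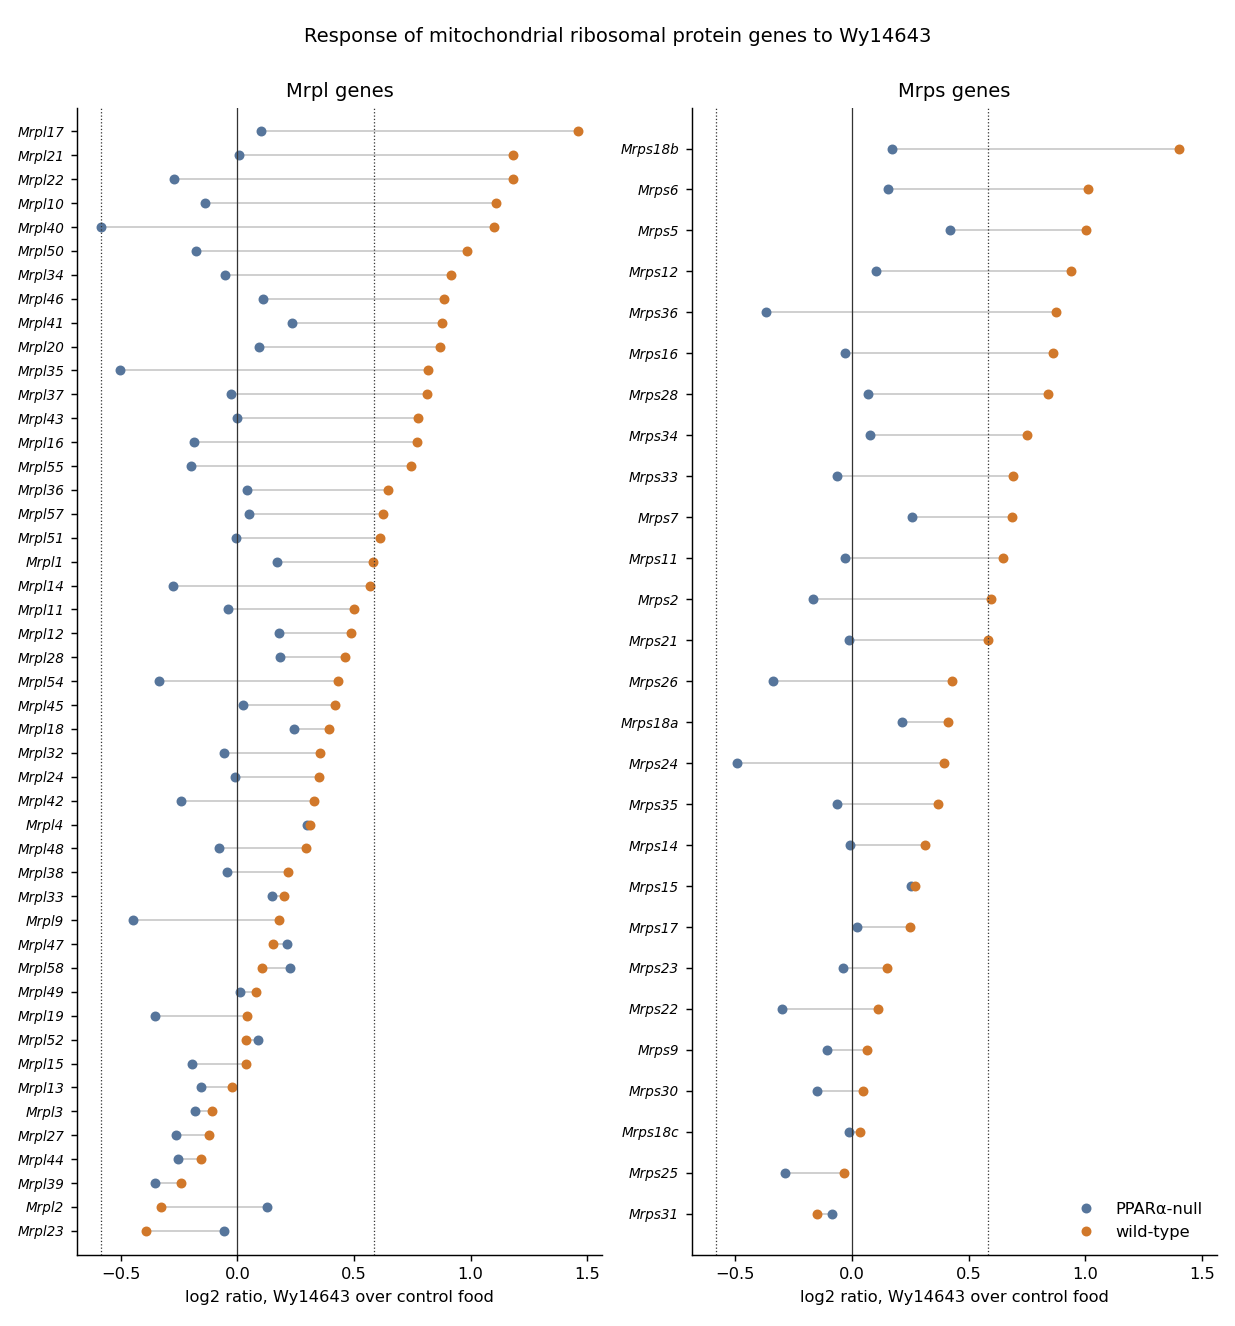
Log2 ratio of Wy14643 over control food for each of the 74 genes (x axis; Mrpl genes left, Mrps genes right), with PPARα-null livers in blue and wild-type livers in orange, and dotted lines at 1.5-fold in either direction. Each point is a ratio of 2 pooled arrays; 30 orange points and 0 blue points lie right of the upper line.

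Mrpl17 had the largest ratio. This protein of the large subunit, whose bacterial counterpart lies at the exit of the peptide tunnel, had an intensity of 647 in PPARα-null livers on Wy14643, 603 in PPARα-null controls, 2083 in wild-type livers on Wy14643 and 756 in wild-type controls. The wild-type Wy14643 array was thus 2.75-fold above its control, while the 3 other arrays lay close together. Mrpl22, which lines the same tunnel, had 81.3 in PPARα-null livers on Wy14643, 98.1 in PPARα-null controls, 241 in wild-type livers on Wy14643 and 107 in wild-type controls, a log2 ratio of 1.18 in wild-type livers and -0.27 in PPARα-null livers. The tunnel exit did not move as one. Mrpl23, another protein at the exit, had 436 in PPARα-null livers on Wy14643, 454 in PPARα-null controls, 292 in wild-type livers on Wy14643 and 383 in wild-type controls, the lowest wild-type ratio of all members (-0.39). Of the 6 members placed at the exit, 2 were higher on Wy14643 in wild-type livers, with a median log2 ratio of 0.38.

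Among proteins of the large subunit outside the tunnel, Mrpl21 had 22.6 in PPARα-null livers on Wy14643, 22.4 in PPARα-null controls, 50.5 in wild-type livers on Wy14643 and 22.3 in wild-type controls. The 3 lower arrays hardly differed, and the ratio in wild-type livers was 2.27-fold. Mrpl34 had 76.8 in PPARα-null livers on Wy14643, 79.7 in PPARα-null controls, 165 in wild-type livers on Wy14643 and 87.2 in wild-type controls. Mrpl50, which has no bacterial counterpart, had 175 in PPARα-null livers on Wy14643, 198 in PPARα-null controls, 358 in wild-type livers on Wy14643 and 181 in wild-type controls. All 3 genes had their highest value on the wild-type Wy14643 array. Mrpl35 had 71.2 in PPARα-null livers on Wy14643, 101 in PPARα-null controls, 161 in wild-type livers on Wy14643 and 91.4 in wild-type controls.

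The stalk of the large subunit recruits translation factors, with Mrpl10 and Mrpl11 at its base and copies of Mrpl12 at its tip. Mrpl10 had 195 in PPARα-null livers on Wy14643, 214 in PPARα-null controls, 449 in wild-type livers on Wy14643 and 209 in wild-type controls, a log2 ratio of 1.11 in wild-type livers. Mrpl12 had 851 in PPARα-null livers on Wy14643, 751 in PPARα-null controls, 1254 in wild-type livers on Wy14643 and 894 in wild-type controls, which at 0.49 stayed under the threshold. Mrpl11, at 0.50, had 245 and 251 in PPARα-null livers on Wy14643 and control food, and 346 and 244 in wild-type livers on the same diets. So 1 of the 3 stalk genes reached 1.5-fold, although all 3 were highest on the wild-type Wy14643 array.

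The central protuberance faces the small subunit, and 3 of the 6 members placed there were higher on Wy14643 in wild-type livers (median log2 ratio 0.57), against 14.7% of genes over all. Mrpl40 had 75.6 in wild-type livers on Wy14643 and 35.3 in wild-type controls, a log2 ratio of 1.10, opposite to that in PPARα-null livers. Mrpl46 had 53.1 in PPARα-null livers on Wy14643, 49.1 in PPARα-null controls, 107 in wild-type livers on Wy14643 and 57.7 in wild-type controls. The third was Mrpl55, the dimmest member. It was above background only in wild-type livers on Wy14643, with 19.1, against 11.4 in wild-type controls, so its ratio is at least 1.52-fold. Mrpl55 thus entered the 3 of 6 only through the array where it is high.

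In the small subunit, Mrps18b had the largest ratio. It had 147 in PPARα-null livers on Wy14643, 130.5 in PPARα-null controls, 399 in wild-type livers on Wy14643 and 151 in wild-type controls, a log2 ratio of 1.40 in wild-type livers. Mrps18b is 1 of 3 related copies of a bacterial protein, and the copies differed. Mrps18a, which lies in the large subunit despite its name, had 79.8 in PPARα-null livers on Wy14643, 68.8 in PPARα-null controls, 116 in wild-type livers on Wy14643 and 87.4 in wild-type controls, a log2 ratio of 0.41. Mrps18c of the small subunit had 703 in PPARα-null livers on Wy14643, 709 in PPARα-null controls, 704 in wild-type livers on Wy14643 and 688 in wild-type controls, nearly the same on all 4 arrays.

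Mrps6, whose bacterial counterpart binds next to that of the Mrps18 proteins, had 53.5 in PPARα-null livers on Wy14643, 48.0 in PPARα-null controls, 95.4 in wild-type livers on Wy14643 and 47.4 in wild-type controls. Mrps5 had 103 in wild-type livers on Wy14643 and 51.3 in wild-type controls, and so the member with the highest log2 ratio in PPARα-null livers (0.42) was past the threshold in wild-type livers (1.004). Mrps12, a protein of the decoding centre, had 129 in PPARα-null livers on Wy14643, 121 in PPARα-null controls, 273 in wild-type livers on Wy14643 and 142 in wild-type controls. Mrps36 has a ribosomal name but belongs to the 2-oxoglutarate dehydrogenase complex, and was counted in neither subunit. It had 21.7 in PPARα-null livers on Wy14643, 28.1 in PPARα-null controls, 63.8 in wild-type livers on Wy14643 and 34.8 in wild-type controls.

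**Figure D2:**
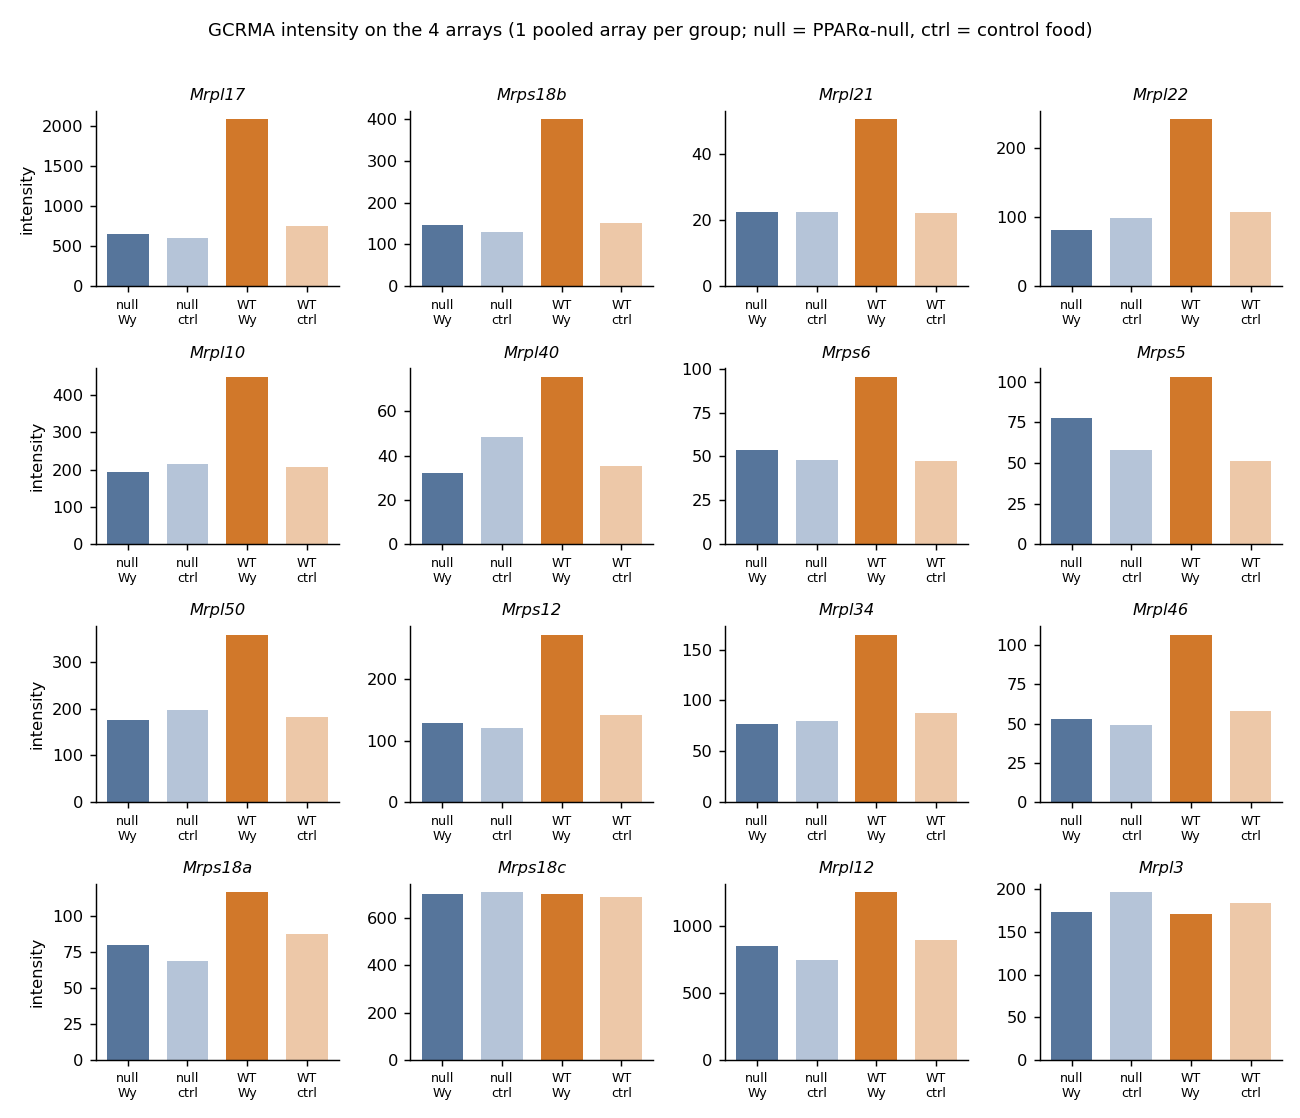
GCRMA intensity (y axis, linear, from 0) of 16 genes on the PPARα-null Wy14643, PPARα-null control, wild-type Wy14643 and wild-type control arrays, left to right, with 1 bar per pooled array and no error. The first 12 panels are the genes with the largest wild-type ratio, in each of which the wild-type Wy14643 bar is the highest; in the last 4 it stands out less (Mrps18a, Mrpl12) or not at all (Mrps18c, Mrpl3).

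Several members mutated in inherited human disease of mitochondrial translation differed in response. Mrps16 had 299.6 in PPARα-null livers on Wy14643, 306 in PPARα-null controls, 593 in wild-type livers on Wy14643 and 327 in wild-type controls, a log2 ratio of 0.86 in wild-type livers. Mrps34 had 129 in PPARα-null livers on Wy14643, 122 in PPARα-null controls, 215 in wild-type livers on Wy14643 and 128 in wild-type controls. Mrps22 (log2 ratio 0.11), Mrpl3 (-0.11) and Mrpl44 (-0.16) lay between the thresholds in wild-type livers, as did Mrps30, a large subunit protein despite its name (0.05). The smallest wild-type ratios were those of Mrpl13 (-0.02), Mrps18c (0.03) and Mrps25 (-0.03).

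The other members at least 1.5-fold higher on Wy14643 in wild-type livers were Mrpl16, Mrpl20, Mrpl36, Mrpl37, Mrpl41, Mrpl43, Mrpl51 and Mrpl57 of the large subunit and Mrps2, Mrps7, Mrps11, Mrps28 and Mrps33 of the small subunit. Mrps2 passed the threshold narrowly (0.60), and just short of it lay Mrps21 and Mrpl1 (0.58 each). By place, 18 of 49 genes of the large subunit (median log2 ratio 0.42) and 11 of 24 of the small subunit (0.50) were higher. By origin, 19 of 46 genes with a bacterial counterpart (0.49) and 10 of 27 particular to mitochondria (0.37) were higher. In PPARα-null livers all 4 of these groups had medians between -0.06 and -0.01. Members of each group lay on both sides of the threshold in wild-type livers.

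On Wy14643, 36 of the 74 members were lower by 1.5-fold or more in PPARα-null than in wild-type livers and 0 were higher. Their median log2 ratio was -0.55, the range -1.69 to 0.58. Over all 7856 genes measured in this pair, 1355 were higher (17.2%) and 1278 lower (16.3%), so that the members' share of 48.6% lower stood above that over all genes. With both arrays above background, which leaves out Mrpl55, 35 of 73 members were lower, as were 1152 of 7030 genes over all. This comparison shares the wild-type Wy14643 array with the previous one, and the values are therefore given side by side without counting one as support of the other. The lowest ratios were those of Mrpl17 (-1.69), Mrpl22 (-1.57), Mrps36 (-1.56), Mrps18b (-1.44), Mrpl40 (-1.23), Mrpl10 (-1.21), Mrpl35 (-1.18) and Mrpl21 (-1.16), followed by Mrpl34 (-1.10), Mrps12 (-1.08), Mrpl50 (-1.03) and Mrpl14 (-1.01). The highest was that of Mrpl23 (0.58).

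Of the 36 genes, 27 were also at least 1.5-fold higher on Wy14643 in wild-type livers and 9 were not (Mrpl1, Mrpl9, Mrpl14, Mrpl45, Mrpl54, Mrps23, Mrps24, Mrps26 and Mrps35). Both comparisons use the wild-type Wy14643 array, and the overlap was not counted over all genes. It is therefore not read as a trait of the members. Mrpl14, a protein of the face between the subunits, had 33.0 in PPARα-null livers on Wy14643, 39.9 in PPARα-null controls, 66.5 in wild-type livers on Wy14643 and 44.9 in wild-type controls, just under the threshold within wild-type livers (0.57). For Mrps23 the result depended on the probeset. The brightest had 89.8 in PPARα-null livers on Wy14643, 92.3 in PPARα-null controls, 152 in wild-type livers on Wy14643 and 138 in wild-type controls, a log2 ratio of 0.15 between diets in wild-type livers and of -0.58 between genotypes on control food, just short of 1.5-fold. The other had 31.5 in PPARα-null livers on Wy14643, 35.8 in PPARα-null controls, 52.2 in wild-type livers on Wy14643 and 33.6 in wild-type controls, with 0.64 between diets in wild-type livers and 0.09 between genotypes on control food. The 3 genes higher in wild-type livers on Wy14643 but between the thresholds for genotype were Mrps2 (-0.54), Mrps5 (-0.41) and Mrpl51 (-0.46).

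On the control diet 0 of the 73 members measured were at least 1.5-fold higher and 0 lower in PPARα-null than in wild-type livers. The median log2 ratio was -0.05 and the range -0.58 to 0.46, the lowest being that of Mrps23 and the highest that of Mrpl40. Over all 7516 genes measured, 185 were higher (2.46%) and 183 lower (2.43%). After centring each array on its median, this split over all genes was 140 higher and 211 lower.

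The wild-type Wy14643 array was the highest of the 4 for 61 of the 74 members and for 2662 of 7256 genes over all. The log2 response of PPARα-null livers minus that of wild-type livers had a median of -0.43 over the 73 members measured in every comparison and of 0.00 over all 7256 genes. It was past 1.5-fold for 32 of the 73, each with the larger response in wild-type livers. Over all genes, 1187 had such a difference with the larger response in wild-type livers and 1233 with the larger response in PPARα-null livers.

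**Figure D3:**
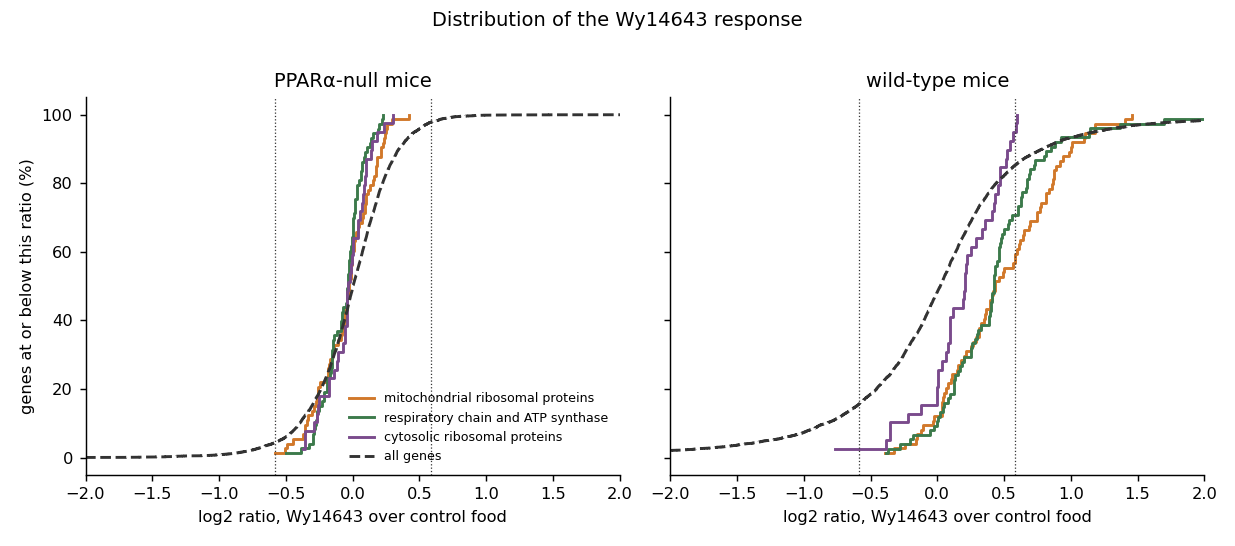
Share of genes (y axis, %) at or below each log2 ratio of Wy14643 over control food (x axis), in PPARα-null livers (left) and wild-type livers (right), for the measured genes; dotted lines mark 1.5-fold. In PPARα-null livers the 4 curves cross near 0, with member and all-gene medians of -0.03 and 0.00; in wild-type livers the members and the respiratory chain genes, with medians of 0.43 and 0.42, lie right of the cytosolic ribosomal proteins (0.20) and of all genes (0.02).

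For some genes the probesets gave different sizes of response. In wild-type livers the members had 34 further probesets above background, from 23 genes, of which 23 had the direction of the chosen one, 10 were at least 1.5-fold higher and 0 lower, with a median log2 ratio of 0.18. Probesets of a gene measure the same RNA on the same array, so that this is a technical comparison only. Both probesets of Mrpl50 responded, the second with 119 in wild-type livers on Wy14643 and 68.9 in wild-type controls (0.79). The second bright probesets of Mrpl41 (1.41) and Mrps2 (1.38) gave larger ratios than those chosen (0.88 and 0.60), and that of Mrps5 a smaller one (0.36 against 1.004).

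Conversely, 7 members between the thresholds had another probeset at least 1.5-fold higher in wild-type livers on Wy14643, so that 37 of 74 members were higher by any probeset. Taking any probeset can only raise a count. All genes were not counted this way, so the 37 cannot be set against the share over all genes. The largest gap was that of Mrpl13. Its brightest probeset had 621 in wild-type livers on Wy14643 and 632 in wild-type controls, while another had 600.3 and 284 on the same arrays (log2 ratio 1.08). That other probeset had 295 in PPARα-null livers on Wy14643 and 302 in PPARα-null controls. Mrpl49 was alike, with 76.7 and 72.5 on its brightest probeset and 64.2 and 30.3 on another in wild-type livers on Wy14643 and control food (1.08). The other 5 genes were Mrpl11 (0.92), Mrpl19 (0.87), Mrpl33 (0.69, at 13.4 on the brighter array), Mrps23 (0.64) and Mrps24 (0.63).

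**Figure D4:**
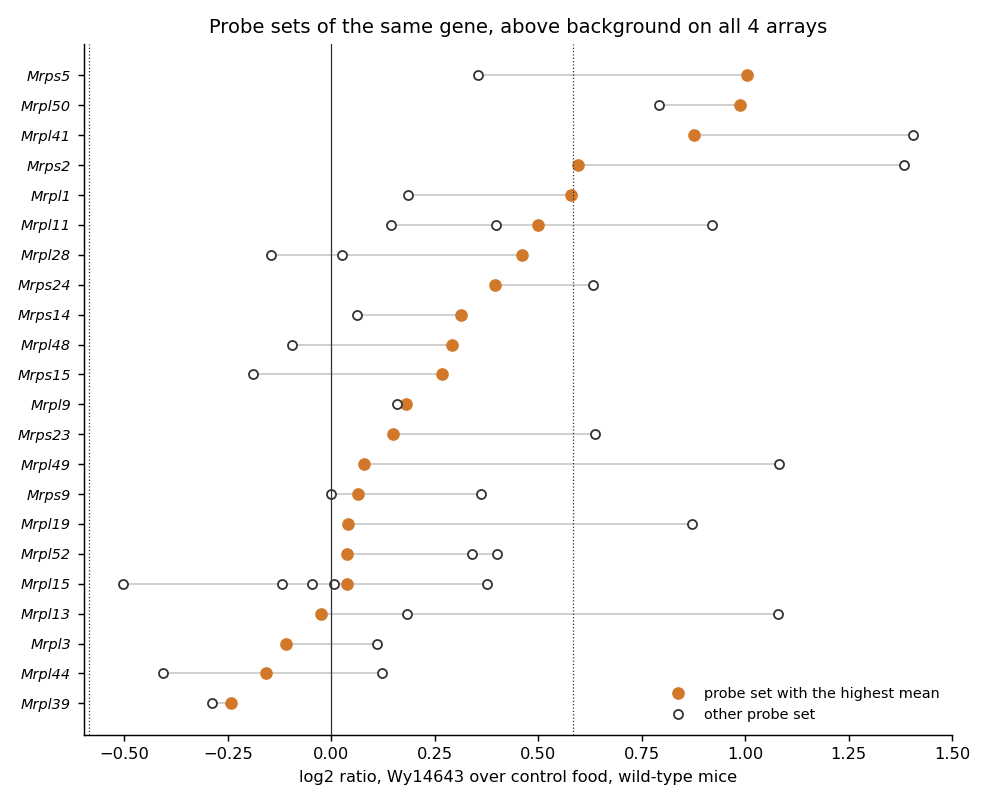
Log2 ratio of Wy14643 over control food in wild-type livers (x axis) for 22 genes with more than 1 probeset above background on all 4 arrays; the filled point is the probeset with the highest mean, open points are the others, and dotted lines mark 1.5-fold. Mrpl13, Mrpl49 and Mrpl19 have an open point past the upper line while the filled one lies near 0.

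Beyond the ribosomal proteins themselves, other genes of mitochondrial translation were read from lists chosen by function. Of 9 translation factors measured, 3 were at least 1.5-fold higher on Wy14643 in wild-type livers and 0 lower (median log2 ratio 0.46). Tufm, the elongation factor that brings aminoacyl-tRNA to the ribosome, had 78.8 in PPARα-null livers on Wy14643, 81.8 in PPARα-null controls, 177 in wild-type livers on Wy14643 and 87.2 in wild-type controls. Qrsl1, a subunit of the amidotransferase that makes mitochondrial glutaminyl-tRNA, had 33.4 in PPARα-null livers on Wy14643, 32.8 in PPARα-null controls, 92.7 in wild-type livers on Wy14643 and 35.0 in wild-type controls. Both were thus high on 1 array. The third was the ribosome recycling factor Gfm2 (0.77 in wild-type livers). In PPARα-null livers 0 of the 9 were higher and 1 was lower, the elongation factor Gfm1 (-0.61), and on Wy14643 7 of 8 measured were lower in PPARα-null than in wild-type livers (median -0.88). Over all genes 16.3% were lower in that pair of arrays.

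Of 7 mitochondrial aminoacyl-tRNA synthetases, 1 was higher in wild-type livers on Wy14643, Ears2, with 13.5 in PPARα-null livers on Wy14643, 15.5 in PPARα-null controls, 43.2 in wild-type livers on Wy14643 and 14.3 in wild-type controls. That share of 14.3% lay near the 14.7% over all genes and is not read as a trait of this list. Of 18 genes of ribosome assembly and ribosomal RNA, 4 were higher in wild-type livers (22.2%) and 0 lower (median log2 ratio 0.24). They were the pseudouridine synthase gene Trub2 (1.45), C1qbp (0.97), Mterf4 (0.82) and the RNA-binding protein gene Slirp (0.72). In PPARα-null livers 1 of the 18 was higher, Mterf4 (0.67), and 2 were lower, the ribosomal RNA methyltransferase gene Nsun4 (-0.84) and Mterf3 (-0.79). Among 5 ribosomal proteins with other names, 1 was higher in wild-type livers (20.0%), and the median log2 ratio was 0.02, with 2 negative. It was Ptcd3, with 270.4 in PPARα-null livers on Wy14643, 253 in PPARα-null controls, 628 in wild-type livers on Wy14643 and 233 in wild-type controls. Dap3, a protein of the small subunit, was nearly level between diets in wild-type livers (0.02).

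Of 7 genes of mitochondrial DNA maintenance and transcription, 1 was higher in wild-type livers, the transcription factor gene Tfb2m (1.18). This share (14.3%) too lay near that over all genes (14.7%). Of 9 regulators of mitochondrial biogenesis, 0 were higher and 1 was lower, the coactivator gene Ppargc1a. It had 28.7 in PPARα-null livers on Wy14643, 41.2 in PPARα-null controls, 19.6 in wild-type livers on Wy14643 and 50.4 in wild-type controls, a log2 ratio of -1.36 in wild-type livers. Nrf1 (-0.32) and Gabpa (0.21) lay between the thresholds in wild-type livers. In PPARα-null livers the coactivator gene Ppargc1b was higher (0.90) and Gabpa lower (-0.65).

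The respiratory chain and ATP synthase, whose mitochondrially encoded subunits this ribosome makes, gave medians near those of the members, with smaller shares past the threshold, among their nuclear genes. In PPARα-null livers 0 of 73 measured were higher and 0 lower (median log2 ratio -0.04). In wild-type livers 22 of 75 were higher (29.3%) and 0 lower (0.42), and on Wy14643 26 of 75 (34.7%) were lower in PPARα-null than in wild-type livers (-0.49). Genes of the cytosolic ribosome had a smaller share past the threshold. In wild-type livers 2 of 39 were higher, Rpsa (0.60) and Rplp0 (0.59), and 1 was lower, Rpl37 (-0.77), with a median of 0.20. These counts depend on the processing: 0 were higher after cyclic loess and 1 with 32 added to every intensity, and 0 were lower with plain-ID probesets. No test of the difference between lists was made.

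**Figure D5:**
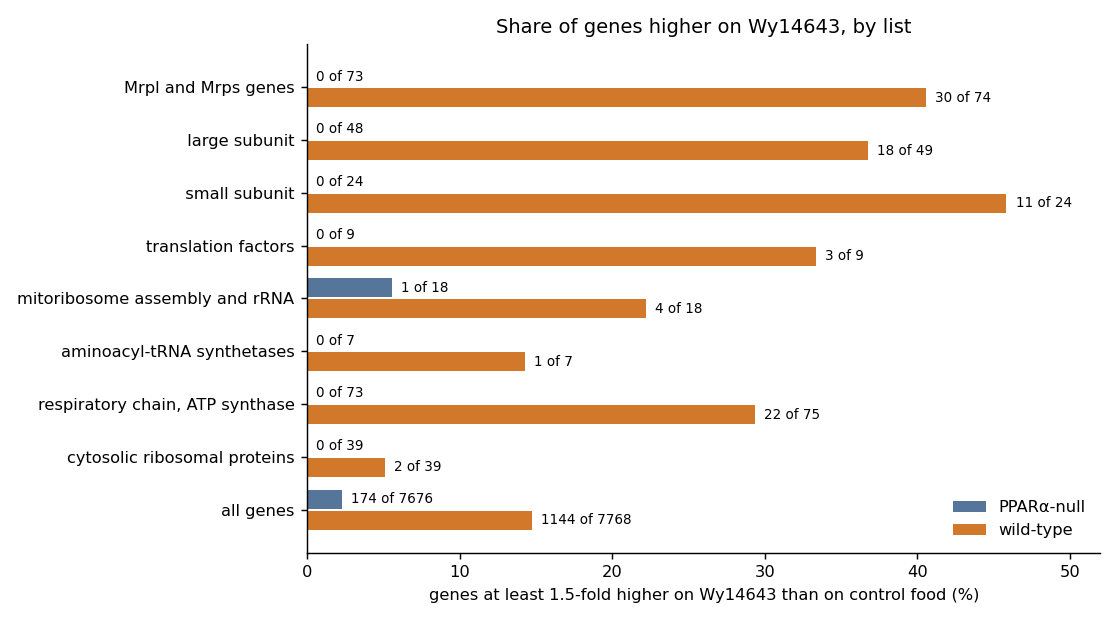
Share of genes at least 1.5-fold higher on Wy14643 than on control food (x axis, %) by list, with PPARα-null livers (blue) above wild-type livers (orange) and counts of genes above background at each bar. In wild-type livers 30 of 74 members, 22 of 75 respiratory chain and ATP synthase genes, 2 of 39 cytosolic ribosomal proteins and 1144 of 7768 genes over all were higher; in PPARα-null livers 0 of 73 members were.

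Markers of other cell types moved between the same arrays. Summed over 7 genes, markers of dividing cells were highest on the array where the members were highest, with 841 in PPARα-null livers on Wy14643, 724 in PPARα-null controls, 1421 in wild-type livers on Wy14643 and 762 in wild-type controls. Pcna made up most of that sum, with 780.2 in PPARα-null livers on Wy14643, 674 in PPARα-null controls, 1309.7 in wild-type livers on Wy14643 and 704 in wild-type controls. Of the 7 genes, 5 exceeded background in wild-type livers on Wy14643 and 2 in wild-type controls (Pcna and Mcm6), so that 3 were measured only through the array where they are high, and a count of markers past the threshold is not given. Kupffer cell markers were lower on Wy14643 in both genotypes, 7 of 7 in PPARα-null and 6 of 7 in wild-type livers, with sums of 601 and 1194 in PPARα-null livers on Wy14643 and control food and 409 and 1012 in wild-type livers fed the same. Sinusoidal endothelial markers were lower for 4 of 8 in PPARα-null livers and 2 of 7 in wild-type livers. In PPARα-null livers 8 of them exceeded background in controls and 6 on Wy14643, so some were measured only through the control array. Of the stellate cell markers, in PPARα-null livers Wy14643 went with 2 of 6 higher and 1 lower (median log2 ratio 0.49). In wild-type livers 0 of 5 were higher and 3 lower (-0.70). Summed over 8 genes, stellate cell markers had 2651 in PPARα-null and 1092 in wild-type livers on Wy14643. In PPARα-null livers 6 stellate markers exceeded background on Wy14643 and 5 in controls, and in wild-type livers 4 and 5. Some were thus measured only through the array where they are high, and a count past the threshold between genotypes is not given. Neutrophil markers, summed over 5 genes, had 256 in PPARα-null livers on Wy14643 and 63.8 in PPARα-null controls. In wild-type livers their sums were 55.1 on Wy14643 and 56.4 in controls. Of the 5 genes, 4 exceeded background in PPARα-null livers on Wy14643 and 3 in PPARα-null controls, so a count past the threshold is not given. S100a8 had a log2 ratio of 2.75 between diets in PPARα-null livers.

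Hepatocyte markers also moved. In PPARα-null livers 0 of 9 were higher and 0 lower (median log2 ratio 0.00), while in wild-type livers 0 were higher and 3 of 9 lower (-0.49), Tat by 2.93-fold, Cps1 by 2.12-fold and Fgb by 1.54-fold. Their sum was 88090 in PPARα-null livers on Wy14643, 89096 in PPARα-null controls, 77466 in wild-type livers on Wy14643 and 88808 in wild-type controls. Alb, Apoa1 and Ttr made up most of it, with 18534, 20537 and 13717 in wild-type livers on Wy14643. Their log2 ratios between diets in wild-type livers were 0.34, 0.03 and -0.15. The part of these shifts in the members' ratios was not tested.

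The members' promoters were read from RefSeq, which had an entry for 65 of the 74, with 71 promoters of 300 bases, from 250 before to 50 after the start. Letters were searched on both strands, none of the letter strings contains another, and a match is only a match of letters. The ETS letters CCGGAAG were found for 24 of 65 members (36.9%), against 9.93% of all 27025 genes with an entry and 16.3% of the 9887 genes on the arrays with an entry. The NRF1 core GCATGCGC was found for 8 members (12.3%), against 3.05% of all genes and 5.01% of genes on the arrays. AAGATGGC, the core of the YY1 site, which also holds the letters of a start codon, was found for 11 members (16.9%), against 3.19% and 4.39%. CACGTG, the E-box, was found for 5 members (7.69%), against 8.09% and 10.8%. A direct repeat of AGGTCA with 1 base between, the element that PPARα binds with its partner, was found for 0 members, with or without 1 mismatch. With up to 1 mismatch it was found for 0.644% of all genes and 0.486% of genes on the arrays. At such shares 0 of 65 members lies near the share over all genes, and it is not read as a trait of the members. Elements outside the 300 bases or with more mismatches were not searched. Members also had promoters rich in G and C, with a median of 58.7% against 52.7% over all promoters.

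Members on both sides of the threshold were found with and without these letters, and no test of the letters was made. In wild-type livers 11 of 24 members with the ETS letters were at least 1.5-fold higher (median log2 ratio 0.50), and 17 of 41 without (0.49). With the NRF1 core 4 of 8 were higher (0.73), and without it 24 of 57 (0.49). With the YY1 core 6 of 11 were higher (0.64), and without it 22 of 54 (0.47). With the E-box 3 of 5 were higher (0.64), and without it 25 of 60 (0.47). The median log2 ratio of PPARα-null over wild-type on Wy14643 was -1.01 with and -0.55 without the NRF1 core, -0.71 with and -0.54 without the YY1 core, -0.66 with and -0.56 without the ETS letters, and -0.71 with and -0.55 without the E-box. The 3 promoters printed above differed in response: each holds the NRF1 core close to the start, and the log2 ratios in wild-type livers were 1.46 for Mrpl17, 1.18 for Mrpl22 and 0.20 for Mrpl33.

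Many members share a start region with a gene on the other strand. Of the 65 with an entry, 25 (38.5%) had such a divergent gene with a start within 1000 bases, against 18.0% of genes on the arrays and 13.6% of all genes. Pairs whose starts overlap by a short stretch were counted too, such as Mrpl48 and Rab6a, with a distance of -36 bases. In 1 pair both genes are members. Mrpl46 and Mrps11 start 42 bases apart on chromosome 7 and run away from each other, and the 41 bases between their starts (chr7:78783090-78783130, plus strand, shown because both genes use it) are as follows.
Mrpl46-Mrps11: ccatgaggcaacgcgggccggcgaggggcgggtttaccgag

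Mrps11, a protein of the small subunit platform, had 31.3 in PPARα-null livers on Wy14643, 31.97 in PPARα-null controls, 60.2 in wild-type livers on Wy14643 and 38.5 in wild-type controls, and it was higher on Wy14643 in wild-type livers (0.65) as Mrpl46 was (0.89). The other pairs varied. Mrps12 starts 147 bases from Sars2, the mitochondrial seryl-tRNA synthetase gene, and the log2 ratio in wild-type livers was 0.94 for Mrps12 and -0.28 for Sars2. Mrpl48 and Rab6a, a small GTPase gene, had 0.29 and -1.15. Mrpl41 had 0.88 and Pnpla7, a lysophospholipase gene, 0.62, both past the threshold. Mrpl18 had 0.39 and Tcp1, a chaperonin subunit gene, 0.86. Mrpl32 and the proteasome gene Psma2 had 0.35 and 0.72, Mrpl14 and Tmem63b 0.57 and 0.43, and Mrpl2 and Klc4 -0.33 and -0.17. Where the member was higher and its partner was above background, the partner was higher too in 3 of 6 cases, 2 of them the Mrpl46 and Mrps11 pair seen from each side.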

How the data were processed

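Liver RNA of 4 groups of mice was hybridized to Affymetrix MOE430A arrays, 1 array of pooled RNA per group. The values are intensities as deposited: per the submitters' processing notes, the authors used GCRMA 2.20, which corrects background, normalizes by quantiles and summarises probes. Whether these 4 arrays were normalized alone is not given in the sources used here. The values run from 1.55 to 31270.2 and were taken as linear. Quantile normalization sets the arrays to one distribution, so that a shift of all genes would not be seen.

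Of 22690 probesets, 64 controls were left out. GEO's platform annotation gave 1 symbol to 20380, several to 691 and none to 1555. Ratios were taken on the log2 scale and counted at 1.5-fold, the study's threshold, for genes above background on either array of a comparison. Where only 1 array was above background, counts and medians use the deposited ratio. No test was made. The calculation was tested on simulated data. Promoters and gene starts came from RefSeq tables (GRCm38.p6). The members and lists were chosen with earlier results of these data known. Genes were named by rule: every member past 1.5-fold in a comparison (at most 12 in a direction), the 3 with the smallest ratio in wild-type mice, and members of known place or disease (Mrpl3, Mrpl10, Mrpl11, Mrpl12, Mrpl44, Mrps12, Mrps16, Mrps18a, Mrps18b, Mrps18c, Mrps22, Mrps30, Mrps34, Mrps36), with the leading genes of each list. Other genes were named after their values were seen. Alternatives were the filter, a floor at background, 32 added to every intensity, centring, cyclic loess, other choices of probeset and a 2-fold threshold. Calculations were run in Python 3.11.15 (pandas 2.3.3, numpy 2.4.6; figures with matplotlib 3.10.9), and cyclic loess in limma 3.58.1 under R 4.3.3.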

Additional observations from a re-analysis of the deposited data

Results flagged for a closer look

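In 6 of the 74 members the response to Wy14643 ran in opposite directions in the genotypes, at least 1.25-fold each way, which also held for 405 of 7256 genes over all (5.58%, against 8.11% of members). The difference between genotypes was not tested, since each group is 1 array. For Mrpl40 the log2 ratio of Wy14643 over control was -0.58 in PPARα-null livers and 1.10 in wild-type livers. Mrpl35 had -0.50 in PPARα-null and 0.82 in wild-type livers. Mrps36 had -0.37 in PPARα-null and 0.88 in wild-type livers. Mrps24 had -0.49 in PPARα-null and 0.40 in wild-type livers. Mrps26 had -0.34 in PPARα-null and 0.43 in wild-type livers. Mrpl54, which had 34.2 in PPARα-null livers on Wy14643, 43.2 in PPARα-null controls, 64.4 in wild-type livers on Wy14643 and 47.8 in wild-type controls, had -0.33 in PPARα-null and 0.43 in wild-type livers.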

How the results depend on the processing

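No paired analysis was possible because each group is 1 array and the labels carry no replicate numbers, and for the same reason no array could be left out. In wild-type livers 23 to 37 members were higher on Wy14643 under the alternatives at 1.5-fold other than the one limited to probesets with plain IDs, which may bind fewer other transcripts: that one measured 54 members and gave 18. A 2-fold threshold gave 8. Between genotypes on Wy14643 the lower members numbered 27 to 44, 23 with plain IDs and 13 at 2-fold. At least 1 member was higher there with cyclic loess (1), with plain IDs (1) and by any probeset (2). On the control diet 1 member was lower after centring and 1 after cyclic loess. Adding 32 to every intensity left 23 members higher in wild-type livers, all among the 30. The median log2 ratio stayed between 0.35 and 0.45 in wild-type livers and between -0.61 and -0.47 for genotype on Wy14643. Of 136 alternative counts and medians of members, 127 moved little (counts within 1.5 times, medians within 0.1) and 9 moved more. The median in PPARα-null livers (-0.03) lay close to 0 and changed sign with the scaling, to 0.03 after centring and 0.01 after cyclic loess. Over all genes the counts higher and lower on Wy14643 in PPARα-null livers (174 and 334) were 14 and 64 at 2-fold and 52 and 142 with 32 added, with 265 higher after centring and 88 higher by the median probeset. In wild-type livers (1144 and 1219) they were 522 and 572 at 2-fold, with 765 lower with 32 added. Between genotypes they were 695 and 639 on Wy14643 at 2-fold (1355 and 1278 at 1.5-fold), and on control food (185 and 183) 35 and 62 at 2-fold and 64 and 100 with 32 added. In wild-type livers at 2-fold 5 respiratory chain genes in place of 22, and by the median probeset 1 translation factor in place of 3, were higher on Wy14643. Between genotypes on Wy14643, 3 translation factors in place of 7 and 8 respiratory chain genes in place of 26 were lower at 2-fold. For cytosolic ribosomal proteins in wild-type livers 0 were higher and 0 lower at 2-fold. Between genotypes on Wy14643, 2 of them after cyclic loess, 2 with plain IDs and 0 at 2-fold were lower, in place of 4. Counting probesets with several symbols and counting any probeset were added after the data were seen. All genes were not counted by any probeset, so the members' counts by any probeset have no share over all genes beside them. Dim members such as Mrpl55 limit their own ratios.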

Other observations

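Mrpl30 and Mrpl53 were read only through probesets that carry a second symbol (Gm6238 and Ccdc142), so their signal cannot be assigned to 1 gene. The probeset of Mrpl30 had 1301 in PPARα-null livers on Wy14643, 1311 in PPARα-null controls, 2119.6 in wild-type livers on Wy14643 and 1238 in wild-type controls, a log2 ratio of -0.01 in PPARα-null and 0.78 in wild-type livers. The probeset of Mrpl53 had 127 in PPARα-null livers on Wy14643, 122 in PPARα-null controls, 268 in wild-type livers on Wy14643 and 140.4 in wild-type controls, 0.06 in PPARα-null and 0.93 in wild-type livers. With both counted, 32 of 76 genes were at least 1.5-fold higher on Wy14643 in wild-type livers, as were 1146 of 7770 genes over all. A further probeset carries both Nme3 and Mrps34 and was nearly level, with 27.3 in PPARα-null livers on Wy14643, 27.8 in PPARα-null controls, 29.3 in wild-type livers on Wy14643 and 30.1 in wild-type controls.

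The 74 genes lie on 17 chromosomes, with 11 of them on chromosome 11. Among members with a bacterial counterpart, Mrpl2, a core protein near the site of peptide bond formation, had the second lowest wild-type ratio, with 257 in PPARα-null livers on Wy14643, 235 in PPARα-null controls, 192 in wild-type livers on Wy14643 and 241 in wild-type controls. Mrpl58, a peptidyl-tRNA hydrolase that was built into the ribosome, had 359.8 in PPARα-null livers on Wy14643, 308 in PPARα-null controls, 299 in wild-type livers on Wy14643 and 278 in wild-type controls.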
